A study of Caenorhabditis elegans with 5 samples.

Results

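The 10 genes described here encode G protein-coupled receptors for the biogenic amines dopamine, serotonin, tyramine and octopamine in Caenorhabditis elegans. They were taken by name as a given list of amine receptor genes, drawn up with earlier results of these data known. All 10 were found among the 42048 genes of the deposited table. All 10 also passed the filter on low values and were among the 13787 genes tested. The list holds the dopamine receptor genes dop-1, dop-2, dop-3 and dop-4, the serotonin receptor genes ser-1, ser-4 and ser-7, and the tyramine or octopamine receptor genes ser-2, tyra-2 and tyra-3.

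Messenger RNA was measured in neurons sorted by fluorescence from synchronised worms, labelled as day 1 adults, that had been grown at 16 °C. There were 3 libraries from animals carrying edIs6 and the thoc-5(wy822) mutation and 2 wildtype libraries from animals carrying edIs6 alone. edIs6 is known as an integrated transgene in which unc-119 sequence drives a green fluorescent protein in neurons, so both groups carry the reporter. The THO complex, to which THOC-5 belongs, packages new messenger RNA for export from the nucleus; the labels do not describe the wy822 lesion. The comparison asks which neuronal transcripts differ in abundance in the mutant.

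Amine receptors carry slow, modulatory signals. A released amine diffuses to receptors on other neurons and on muscle, and each receptor passes the signal to a class of G protein that raises or lowers excitability and transmitter release. In worms, dopamine slows movement on food, serotonin promotes feeding and egg laying, and tyramine and octopamine act in escape and in starvation. Receptors for 1 amine often oppose each other, so their relative levels set how a neuron responds.

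Depth was 6.80 M to 8.69 M reads on genes in thoc-5(wy822) libraries and 10.2 M to 10.3 M in wildtype libraries. The libraries differed in the share of reads that came from pan-neuronal genes. A list of 18 pan-neuronal genes took 0.694% to 1.08% of the reads of thoc-5(wy822) libraries, against 0.186% in wildtype replicate 1 and 0.0266% in wildtype replicate 2. All 18 were detected in every library but wildtype replicate 2, where unc-31 was at 0. The 18 did not all run alike. In wildtype replicate 2 rab-3, unc-11 and unc-64 had 270, 272 and 193 normalised counts. In wildtype replicate 1 these were 228, 102 and 171, while every other gene of the list was higher there than in replicate 2. egl-3 gave 9634 of the 19161 pan-neuronal reads of wildtype replicate 1 and 617 of the 2716 of replicate 2. Muscle, epidermis, intestine and germline markers, each list summed, took smaller shares in thoc-5(wy822) libraries than in wildtype. Single genes did not all follow the sums. The log2 fold change was positive for 2 of 15 muscle genes and 4 of 11 tested epidermis genes, and for no intestine or germline gene. The epidermis gene rol-6 had 1804, 619 and 638 normalised counts in thoc-5(wy822) libraries against 215 and 226 in wildtype. Whether reads of the edIs6 transgene are among these rol-6 counts was not tested. The 15 muscle genes, all detected in every library, took 1.01% to 1.44% of reads in thoc-5(wy822) libraries against 2.69% and 5.40% in wildtype. For 12 epidermis genes the shares were 0.205% to 1.02% in thoc-5(wy822) libraries and 5.77% to 8.58% in wildtype; dpy-7, bli-1 and bli-2 were at 0 in thoc-5(wy822) replicate 1 and bli-1 in replicate 3. The 12 intestine genes took 0.0463% to 0.199% against 0.629% to 0.771%, and the 12 germline genes 0.0178% to 0.0327% against 0.0802% to 0.221%. At 0 among these were ges-1, elt-2, mtl-1 and spn-4 in thoc-5(wy822) replicate 1 and mtl-1, mex-5, oma-1 and oma-2 in replicate 3. The 3 coelomocyte genes took larger shares, 0.153% to 0.266% in thoc-5(wy822) libraries against 0.00432% to 0.0312% in wildtype. The 6 glia genes overlapped between the groups, at 0.00564% to 0.0117% against 0.00241% to 0.0101%, with daf-6 at 0 in thoc-5(wy822) replicate 1 and fig-1 and hlh-17 at 0 in wildtype replicate 2. Their part in the receptor results was not tested. In bulk samples such as these, fewer cells of a type and less RNA per cell cannot be told apart.

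The mutated gene, listed as Y32H12A.2, had 78.3, 34.6 and 12.7 normalised counts in thoc-5(wy822) libraries, against 154 and 122.2 in wildtype, and did not pass (limma log2 fold change -2.03, adjusted p = 0.148). unc-119, whose reads may include reads of the transgene, rose by a log2 fold change of 3.01 (adjusted p = 0.0382).

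Transcripts of 9 of the 10 receptors were higher in every thoc-5(wy822) library than in either wildtype library, and the 3 that passed the test were the 3 tyramine or octopamine receptor genes. tyra-3, ser-2 and tyra-2 rose at an adjusted p below 0.05 in limma, none of the 10 fell, and the other 7 did not pass. Over all genes tested, 6.97% were called higher and 5.92% lower. The groups were apart in that direction in 30.1% of all genes tested; ser-1 was the exception among the 10. All 10 had a log2 fold change of 2 or more, as did 24.4% of all genes tested, and their median was 4.27, against 0.13 over all genes tested. Fold changes are differences of group means, thoc-5(wy822) minus wildtype, after adding 1 to each normalised count and taking log2; a normalised count is a read count divided by the library's size factor.

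**Figure D1:**
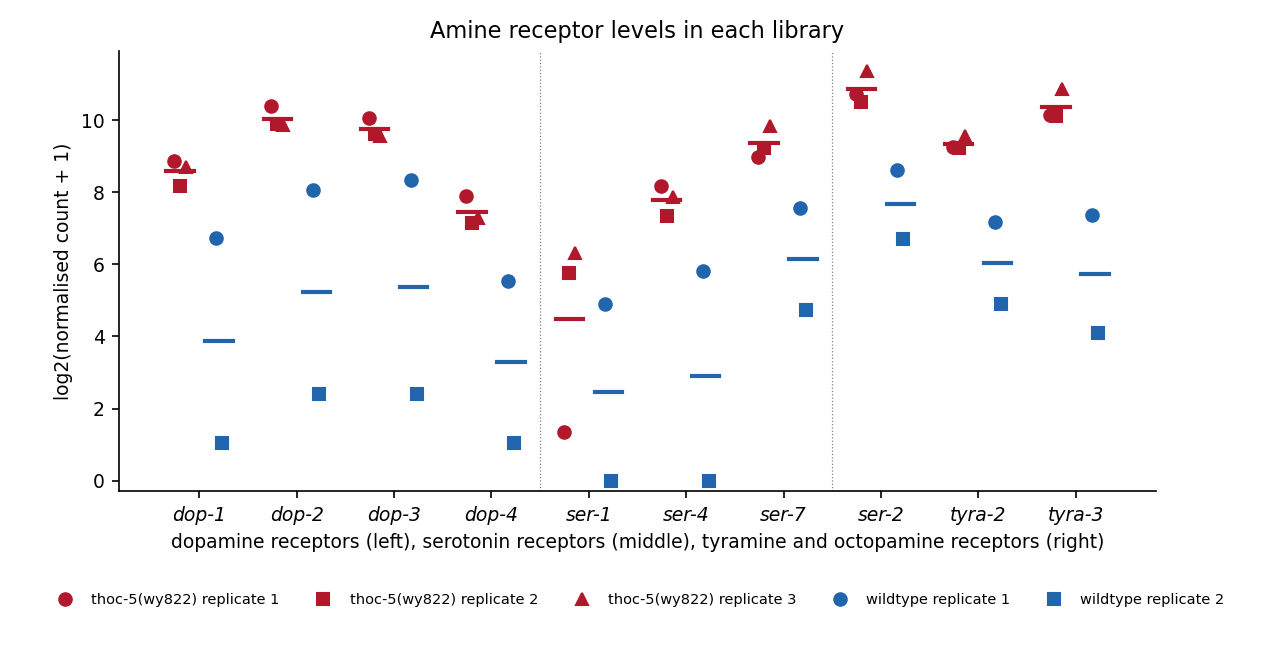
Levels of the 10 receptor genes in each library on the log2(normalised count + 1) scale, with thoc-5(wy822) libraries in red and wildtype libraries in blue; lines are group means of the log2 values (n = 3 and n = 2). Wildtype replicate 2 is lowest for every gene, and for dop-1 to dop-4 and ser-4 it lies far below wildtype replicate 1, while the thoc-5(wy822) libraries stay close together except in ser-1.

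The dopamine receptors come in the D1-like type, here dop-1 and dop-4, and the D2-like type, here dop-2 and dop-3. dop-1 (WBGene00001052; WBcel235 chromosome X, 4411301 to 4418851, minus strand) encodes a receptor that works against DOP-3 in the motor neurons that set locomotion rate. Its normalised counts were 464, 290.2 and 415 in thoc-5(wy822) replicates 1 to 3, against 105 and 1.06 in wildtype replicates 1 and 2. The thoc-5(wy822) libraries lay within a narrow band, while wildtype replicate 2 rested on a single read. dop-1 did not pass in limma, at a log2 fold change of 4.70 with SE 1.54 (adjusted p = 0.0785).

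dop-3 (WBGene00020506; chromosome X, 6564175 to 6569724, minus strand) encodes the D2-like receptor through which dopamine slows movement. It had 1063, 778 and 757 normalised counts in thoc-5(wy822) libraries, against 320.1 and 4.25 in wildtype libraries. The groups did not overlap, and the lowest thoc-5(wy822) library was 2.37 times the higher wildtype library. dop-3 did not pass in limma either, at a log2 fold change of 4.38 with SE 1.56 (adjusted p = 0.0926). Exons of dop-3 share 33 bases with the opposite-strand gene svh-2, which had 903 to 1059 reads in thoc-5(wy822) libraries and 251 and 553 in wildtype. Exons of ser-2 share 150 bases with the opposite-strand noncoding RNA gene C02D4.12, which had 0 reads in every library. Those of ser-7 share 75 with T14G11.5, of the same kind, with 10, 1 and 7 reads in thoc-5(wy822) libraries and 0 in wildtype. Neither library kit in the labels keeps strand, and reads in such stretches cannot be told apart.

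dop-2 (WBGene00001053; chromosome V, 9608556 to 9614940, plus strand) encodes a D2-like receptor that also sits on the dopamine neurons themselves. Its normalised counts were 1330.0, 952 and 923 in thoc-5(wy822) libraries, against 266 and 4.25 in wildtype libraries. All thoc-5(wy822) libraries lay above the wildtype ones, and wildtype replicate 2 held 4 reads. With a log2 fold change of 4.82 and SE 1.497, dop-2 did not pass (adjusted p = 0.0714 in limma). Over the same libraries dat-1, the dopamine transporter gene of those neurons, had 417, 372 and 679 normalised counts in thoc-5(wy822) and 202 and 60.6 in wildtype.

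dop-4 (WBGene00016872; chromosome X, 1295253 to 1298830, plus strand) encodes a D1-like receptor of an invertebrate type. It had 238, 139.5 and 156 normalised counts in thoc-5(wy822) libraries, against 45.4 and 1.06 in wildtype libraries. Again the groups did not overlap, and wildtype replicate 2 held 1 read. At a log2 fold change of 4.15 and SE 1.32 it did not pass (adjusted p = 0.0740 in limma).

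Among the serotonin receptors, ser-7 (WBGene00004780; chromosome X, 2673572 to 2682384, plus strand) encodes a receptor that raises cyclic AMP and drives pharyngeal pumping. It had 502, 604 and 919 normalised counts in thoc-5(wy822) libraries, against 188 and 25.5 in wildtype libraries. The groups did not overlap. The log2 fold change of 3.21 lay just short of the threshold in limma (SE 0.85, adjusted p = 0.0540) and passed in the authors' deposited table, where it is 2.48 with an adjusted p of 0.0268.

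ser-4 (WBGene00004779; chromosome III, 1723198 to 1733101, minus strand) encodes an inhibitory receptor of the vertebrate 5-HT1 kind. Its normalised counts were 287, 161 and 232 in thoc-5(wy822) libraries, against 54.9 and 0 in wildtype libraries. The groups did not overlap. With no read of 10.2 M, wildtype replicate 2 allows up to 0.293 reads per M reads (3 reads, counting error only). The log2 fold change of 4.89 did not pass (SE 1.61, adjusted p = 0.0796 in limma), and its size depends on the 1 added before the log.

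ser-1 (WBGene00004776; chromosome X, 16579745 to 16587624, plus strand) encodes an excitatory receptor of the vertebrate 5-HT2 kind, known in egg laying and in muscle as well as in neurons. It was the least abundant of the 10 and the only one whose groups overlapped. The thoc-5(wy822) libraries had 1.57, 53.6 and 78.0 normalised counts, from 2, 48 and 80 reads, against 28.8 and 0 in wildtype libraries, from 33 and 0 reads. Replicate 1 was therefore low among the thoc-5(wy822) libraries, below wildtype replicate 1, although it was the highest of the 3 for dop-1 to dop-4 and ser-4. In limma ser-1 did not pass, at 2.03 on the log2 scale with SE 2.06 (adjusted p = 0.505), and without wildtype replicate 2 it was -0.42.

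The tyramine and octopamine receptors had standard errors of 0.65 to 0.94 on the log2 scale, and wildtype replicate 2 held 15 to 98 reads of each. tyra-3 (WBGene00006475; chromosome X, 4948049 to 4955358, plus strand) encodes a receptor that tunes sensory neurons and is known from natural variation in the choice to leave food. It had 1136, 1117 and 1849 normalised counts in thoc-5(wy822) libraries, against 165 and 15.9 in wildtype libraries. The lowest thoc-5(wy822) library was 6.78 times the higher wildtype library, more than for any of the other 9 genes. It rose by a log2 fold change of 4.65 (SE 0.94, adjusted p = 0.0401 in limma), with 1367 ± 417 normalised counts in thoc-5(wy822) and 90.4 ± 105 in wildtype (SD, n = 3 and 2).

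ser-2 (WBGene00004777; chromosome X, 15286533 to 15302963, minus strand) encodes an inhibitory tyramine receptor that acts in the head and body motor circuit during escape. Its normalised counts were 1697, 1439 and 2621 in thoc-5(wy822) libraries, against 394 and 104.1 in wildtype libraries. It was the most abundant receptor per length in every library. It rose by a log2 fold change of 3.19 (SE 0.65, adjusted p = 0.0403 in limma).

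tyra-2 (WBGene00017157; chromosome X, 6996853 to 7005575, minus strand) encodes another inhibitory tyramine receptor, present in sensory neurons. It had 609, 604 and 753 normalised counts in thoc-5(wy822) libraries, against 145 and 28.7 in wildtype libraries. The thoc-5(wy822) libraries were close to one another and all above wildtype. It rose by a log2 fold change of 3.31 (SE 0.71, adjusted p = 0.0426 in limma). Whether the tyramine receptors changed more or less than the dopamine receptors was not tested; the dopamine receptors that did not pass had log2 fold changes of 4.15 to 4.82.

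These calls were lost when 1 library other than wildtype replicate 1 was left out. Without wildtype replicate 2, or without any 1 thoc-5(wy822) library, limma called none of the 10 genes and none of the 13787. At an unadjusted p below 0.05, 9 of the 10 were higher without wildtype replicate 2, against 15.1% of all genes. Without thoc-5(wy822) replicates 1, 2 and 3 in turn, 4, 8 and 5 of the 10 were higher at that level, against 16.6%, 17.1% and 14.6% of all genes. Without wildtype replicate 2 the log2 fold changes were 3.00 for tyra-3, 2.23 for ser-2 and 2.16 for tyra-2. Without wildtype replicate 1, 9 of the 10 were called higher (15.7% of all genes). The authors' deposited table calls ser-2, ser-7, tyra-2 and tyra-3 higher, 4 of the 10 against 13.4% of all genes, and DESeq2 on the recovered reads called 4 (13.7%), while edgeR called 0 (4 higher at an unadjusted p below 0.05, against 13.7% of all genes). A pseudocount of 8 called 8 of the 10 (12.6% of all genes) and upper quartile scaling 4 (8.12%), while a pseudocount of 0.5, no filter and a filter of 50 called 3 each (4.8%, 2.82% and 8.74%).

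**Figure D2:**
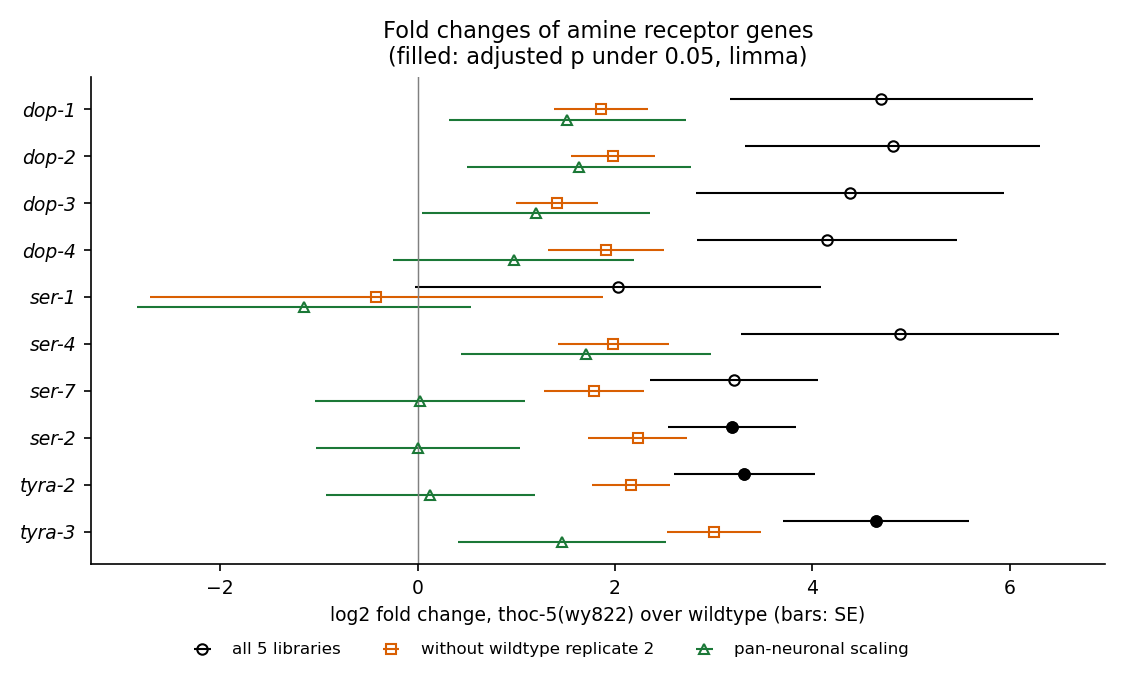
Log2 fold changes of the 10 receptor genes, thoc-5(wy822) over wildtype, with standard errors as bars, from limma with all 5 libraries, without wildtype replicate 2, and with all libraries scaled to the pan-neuronal genes; filled points passed at an adjusted p below 0.05. Leaving out wildtype replicate 2 brings the values to between -0.42 and 3.00, and pan-neuronal scaling to between -1.15 and 1.71.

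Levels of different receptors can be compared only per length, here as normalised counts per kilobase of merged exon. In thoc-5(wy822) libraries the order was ser-2 (807 ± 261 per kilobase), tyra-3 (621 ± 189), dop-3 (400.04 ± 78.9), dop-2 (393 ± 83.6), ser-7 (360 ± 116), tyra-2 (340 ± 44.0), dop-1 (162 ± 37.2), ser-4 (149 ± 41.6), dop-4 (102 ± 30.2) and ser-1 (20.0 ± 17.6), as mean ± SD over 3 libraries. Neighbours in that order overlapped in their ranges except tyra-3 and dop-3, tyra-2 and dop-1, and dop-4 and ser-1. ser-2 ranked 1 in all 5 libraries. dop-1, ser-4, dop-4 and ser-1 took ranks 7 to 10 in the same order in all thoc-5(wy822) libraries and in wildtype replicate 1. tyra-3 ranked 2 in each thoc-5(wy822) library, but 6 in wildtype replicate 1 and 4 in wildtype replicate 2. In wildtype replicate 1 its level was 74.9 per kilobase, about that of tyra-2 at 75.2.

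The make-up of the receptor reads set wildtype replicate 2 apart from the other libraries. Reads of the 10 genes numbered 9354, 5499 and 8930 in thoc-5(wy822) replicates 1 to 3, against 1963 and 174 in wildtype replicates 1 and 2. The 4 dopamine receptor genes made up 42.2%, 35.2% and 25.9% of these reads in thoc-5(wy822), against 43.0% (exact Clopper-Pearson 95% interval 40.8% to 45.2%) in wildtype replicate 1 and 5.75% (2.79% to 10.3%) in wildtype replicate 2. Only 10 dopamine receptor reads were counted in wildtype replicate 2. The same library held 98 ser-2 reads, 56.3% of its receptor reads (48.6% to 63.8%), where ser-2 made up 23.2% to 30.1% in thoc-5(wy822) libraries and 23.03% in wildtype replicate 1. The wildtype libraries thus differed from each other more in receptor make-up than wildtype replicate 1 did from any thoc-5(wy822) library in these dopamine and ser-2 shares. tyra-3 took 15.5%, 18.2% and 21.2% in thoc-5(wy822), against 9.63% (8.36% to 11.02%) and 8.62% (4.91% to 13.8%) in wildtype. The intervals cover counting error only.

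**Figure D3:**
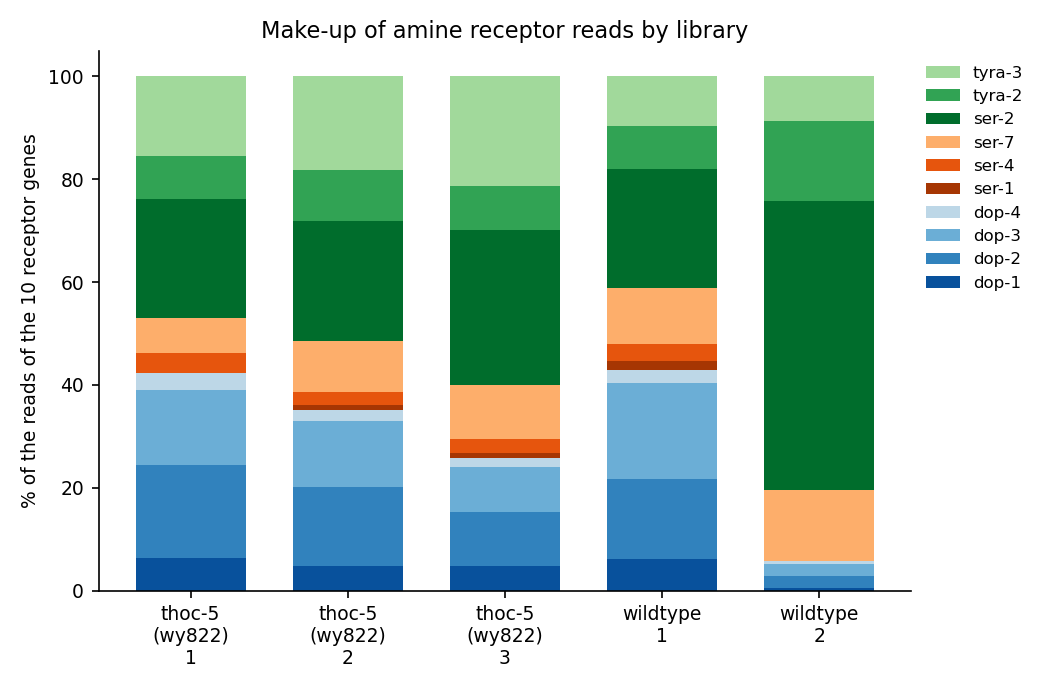
Share of the reads of the 10 receptor genes that each gene took in each library, as percent of those reads, with dopamine receptor genes in blue, serotonin receptor genes in orange and tyramine or octopamine receptor genes in green. The blue share is 25.9% to 42.2% in thoc-5(wy822) libraries and 43.0% in wildtype replicate 1, but 5.75% in wildtype replicate 2, where ser-2 takes 56.3%.

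Set against the summed pan-neuronal reads of each library, the receptors as a group differed far less. The 10 genes had 117.2, 116.5 and 120.2 reads per 1000 pan-neuronal reads in thoc-5(wy822) replicates 1 to 3, against 102 and 64.1 in wildtype replicates 1 and 2. The ratio of group means was 1.42, where it was 9.99 for the same reads as a share of all reads. Compared with wildtype replicate 1 alone the ratio was 1.15. It was 1.41 against both wildtype libraries when egl-3 was left out of the pan-neuronal list. On this scale the sum was higher in every thoc-5(wy822) library than in either wildtype library, while 9 of the 10 genes overlapped between the groups. dop-1 had 7.42, 5.51 and 5.73 reads per 1000 pan-neuronal reads in thoc-5(wy822), against 6.26 and 0.368 in wildtype, and dop-3 had 17.005, 14.8 and 10.5 against 19.2 and 1.47. ser-2 had 27.1, 27.3 and 36.2 against 23.6 and 36.1, and tyra-2 had 9.75, 11.5 and 10.4 against 8.66 and 9.94. Both of these tyramine receptor genes, which passed on the authors' scale, overlapped between the groups here.

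tyra-3 was the exception among the 10. It had 18.2, 21.2 and 25.5 reads per 1000 pan-neuronal reads in thoc-5(wy822) libraries, against 9.86 and 5.52 in wildtype libraries, so the groups did not overlap. That makes 1 of 10 genes, against 6.62% of all genes tested that lay higher without overlap on this scale and 63.6% that lay lower. In the related lists described below, cat-1, cat-2, mod-5, dgk-1 and gbb-1 also lay higher without overlap. So did snt-1, unc-104, unc-31, rgef-1, unc-10 and ric-19 of the pan-neuronal list itself, and the rest of these lists overlapped or lay lower. For tyra-3 the ratio to wildtype replicate 1 was 2.19. For 3 libraries against 2, the smallest two-sided p that exact permutation allows is 0.1. With the mean log2 level of the pan-neuronal genes set equal in all libraries, tyra-3 did not pass in limma (log2 fold change 1.47, adjusted p = 0.247). None of the 10 passed under that scaling, in either direction and at either an adjusted or an unadjusted p below 0.05; over all genes 0.29% were called higher and 50.9% lower (0.573% and 57.7% at an unadjusted p below 0.05), with a median log2 fold change of -3.05. Under the same scaling without wildtype replicate 2 none of the 10 was called (0.0943% of all genes higher), at log2 fold changes of -2.37 to 1.05 and with none at an unadjusted p below 0.05 (1.32% of all genes higher and 40.4% lower).

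**Figure D4:**
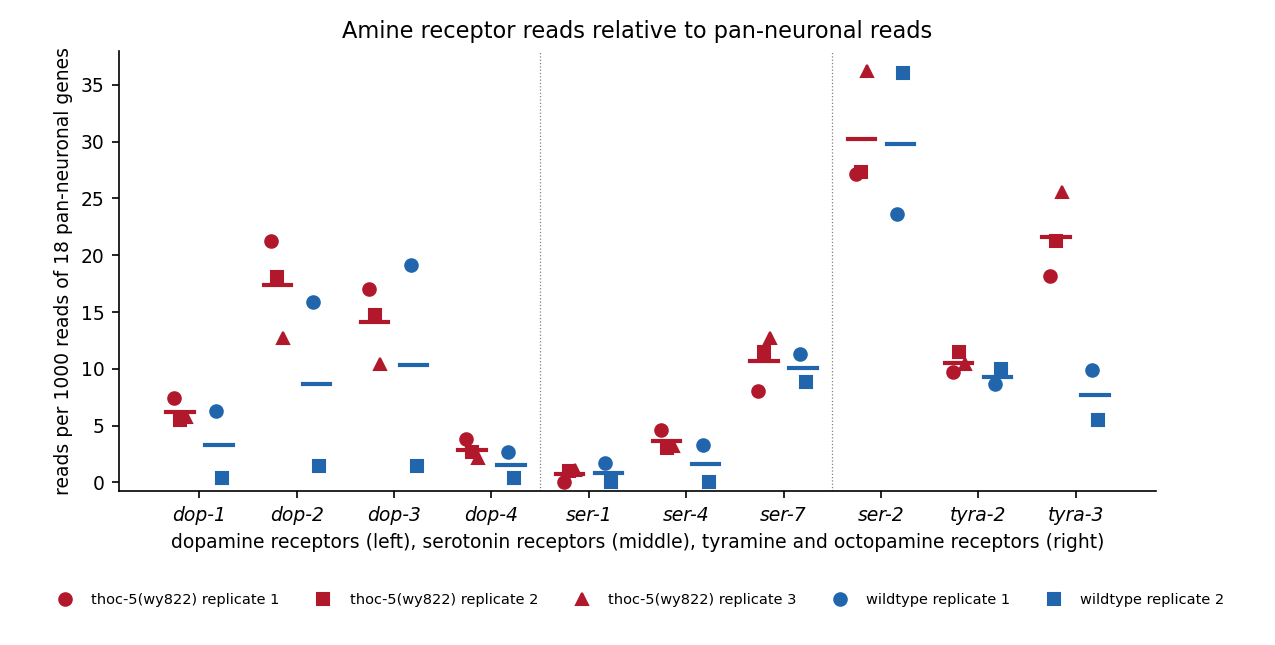
Reads of each receptor gene per 1000 reads of 18 pan-neuronal genes in each library, with thoc-5(wy822) libraries in red, wildtype libraries in blue and lines for group means (n = 3 and n = 2). Only tyra-3 has all thoc-5(wy822) libraries (18.2 to 25.5) above both wildtype libraries (5.52 and 9.86); the dopamine receptor genes are near 0 in wildtype replicate 2.

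Other amine receptors outside the list gave a mixed picture. Of 6 further G protein-coupled amine receptor genes 1 rose and none fell (6.97% and 5.92% of all genes tested), with a median log2 fold change of 2.89. dop-5, a D2-like receptor gene, rose by a log2 fold change of 3.25 (adjusted p = 0.0477 in limma). The log2 fold changes were 3.85 for the related dop-6 (adjusted p = 0.0786), 4.23 for the serotonin receptor gene ser-5 (adjusted p = 0.127), and 2.53 and 1.09 for the octopamine receptor genes octr-1 (adjusted p = 0.0604) and ser-6 (adjusted p = 0.368). The octopamine receptor gene ser-3 stood apart, with 826, 856 and 664 normalised counts in thoc-5(wy822) libraries against 208 and 1391 in wildtype libraries. It was highest in wildtype replicate 2, the library in which all 10 genes of the list were lowest, with a log2 fold change between the groups of 0.53 (adjusted p = 0.660).

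Ion channels opened directly by amines are the other receptor class. None of the 4 tested passed in limma, with 3 higher at an unadjusted p below 0.05 (22% of all genes), and their median log2 fold change was 3.03. The serotonin-gated channel genes mod-1 and lgc-50 had log2 fold changes of 2.01 (adjusted p = 0.0593) and 4.05 (adjusted p = 0.0812). The dopamine-gated lgc-53 had one of 4.40 (adjusted p = 0.0610) and the tyramine-gated lgc-55 one of 1.17 (adjusted p = 0.155). In normalised counts all 4 lay higher in every thoc-5(wy822) library than in wildtype, as did 30.1% of all genes tested. Per 1000 pan-neuronal reads mod-1 lay lower, as did 63.6% of all genes tested, at 10.5, 6.63 and 7.75 in thoc-5(wy822) against 11.6 and 27.6 in wildtype, and the other 3 overlapped between the groups.

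Genes that make, move and break down the amines differed among themselves. Of 10 tested, cat-2 and mod-5 rose and amx-2 fell, where 6.97% of all genes tested were called higher and 5.92% lower. The median log2 fold change of the 10 was 2.02. cat-2, which encodes the tyrosine hydroxylase of dopamine synthesis, showed a log2 fold change of 4.69 (in limma, adjusted p = 0.0490) and the serotonin transporter gene mod-5 one of 5.10 (adjusted p = 0.0496). amx-2, which encodes a monoamine oxidase that degrades amines, had 109, 326 and 172 normalised counts in thoc-5(wy822) libraries against 1069 and 921 in wildtype, and fell, with a log2 fold change of -2.44 (adjusted p = 0.0446 in limma).

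Downstream of the receptors, 3 of 20 G protein signalling genes rose and none fell (6.97% and 5.92% of all genes tested), with a median log2 fold change of 1.60. They were pkc-1 (2.96, adjusted p = 0.0384), a protein kinase C gene, the arrestin gene arr-1 (2.38, adjusted p = 0.0444), whose product shuts receptors off, and gpb-2 (1.71, adjusted p = 0.0493), a G protein beta subunit gene. Of 8 receptor genes for acetylcholine, GABA and glutamate that are also G protein-coupled, 4 rose (6.97% of all genes tested), with a median log2 fold change of 4.12. The GABA receptor genes gbb-1 and gbb-2 had log2 fold changes of 5.66 (adjusted p = 0.0382) and 3.18 (adjusted p = 0.0407) and the muscarinic receptor gene gar-2 one of 3.64 (adjusted p = 0.0396). The 18 pan-neuronal genes had 6 that rose (6.97% of all genes tested) and a median of 3.47. With pan-neuronal scaling the medians were -1.58 for signalling genes, 0.94 for these other receptors and 0.28 for pan-neuronal genes. Under that scaling they were -0.29 for the 6 further G protein-coupled amine receptor genes and -0.15 for the amine-gated channel genes. For amine synthesis and transport genes the median was -1.16. The medians of the amine receptors and of these lists were not tested against each other. Like the receptor calls, each of these calls was lost in limma without wildtype replicate 2.

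**Figure D5:**
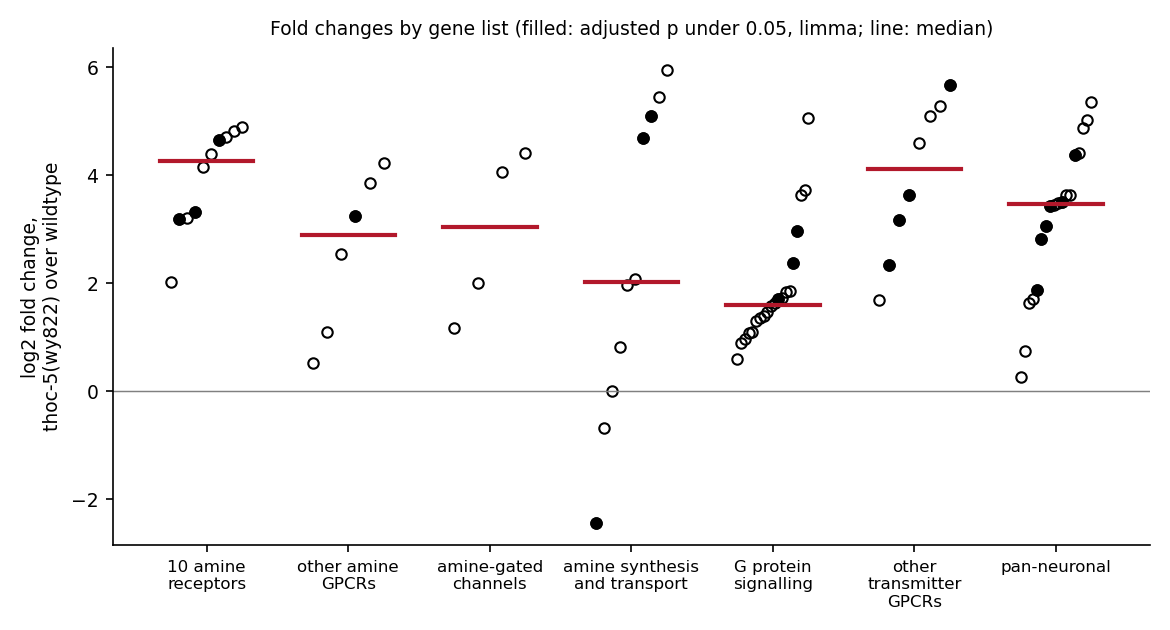
Log2 fold changes, thoc-5(wy822) over wildtype, of each tested gene in the 10 amine receptors and in 6 related lists, from limma with all 5 libraries; filled points passed at an adjusted p below 0.05 and lines are medians. The median is 4.27 for the 10 receptors, 4.12 for other transmitter receptors and 3.47 for pan-neuronal genes, against 2.02 for amine synthesis and transport and 1.60 for G protein signalling.

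The genes whose levels ran most like the mean log2 level of the 10 receptors over the 5 libraries were the neuroligin gene nlg-1 (Pearson r = 0.99997), fmi-1, a cadherin of the Flamingo type (0.9995), and F53A2.1 (0.9995). With 5 libraries such likeness is common: 317 of the 8986 genes compared had an r above 0.99.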

How the data were processed

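The authors deposited 1 table of 42048 genes. Per the submitters' processing notes, the tools were Trim Galore, STAR 2.4.2a and DESeq2, with build ce10; neither the read counter nor the annotation is given in the sources used here. As deposited, per-library signal values are read counts per gene over a size factor set for each library by the authors. The table also holds, per the file headers, the authors' log2 fold change with its standard error, a test score, and p-values before and after adjustment. In every library 100% of values were whole multiples of 1 read within a tolerance of 1e-04 reads, so reads could be recovered for edgeR 4.0.16 (TMM) and DESeq2 1.42.0. On them 0 genes passed in edgeR (3869 had an unadjusted p below 0.05) and DESeq2 called 2070 higher and 1642 lower.

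Groups were compared mainly with limma 3.58.1, run in R 4.3.3 (trended eBayes) after adding 1 and taking log2, over the 13787 genes that reached a normalised count of 10 in 2 or more libraries, with Benjamini-Hochberg adjustment over all of them and a two-sided threshold of 0.05. It called 961 genes higher and 816 lower. The labels do not say whether replicate libraries are separate cultures; the spread behind the p-values is that between libraries and may be technical. The members and gene lists were chosen with earlier results of these data known. Named are all members and all tested genes of the other amine receptor lists. From each of the synthesis, signalling and other receptor lists the 3 with the smallest p are named. The checks of the labels and the 3 genes most like the members are named too. The ser-3 and dat-1 values, the markers at 0 and the genes that share exon bases with members are given in addition. Positions and exon lengths come from Ensembl's WBcel235 annotation, matched by name, and not from ce10. No sequences were used here. The scripts were tested on simulated counts with known changes.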

Additional observations from a re-analysis of the deposited data

How the results depend on the processing

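The number of the 10 receptor genes called higher was 3 with all libraries, and it was 0 with a replicate block, 0 with pan-neuronal scaling, 0 in edgeR and 8 with a pseudocount of 8. It ranged from 0 to 9 over leaving out each library. It was 3 or 4 under a pseudocount of 0.5, no filter, a filter of 50, upper quartile scaling, DESeq2 and the authors' deposited p-values. No setting called any of the 10 lower. The block used the replicate number as a pairing; same-numbered libraries had deviations correlated at 0.00931 and 0.111, which with 2 shared numbers does not show that they pair, and the block left 0 of all genes called.

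The median log2 fold change of the 10 genes was 4.27, 1.09 with pan-neuronal scaling, and 1.95 to 6.35 over leaving out each library. Together, pan-neuronal scaling without wildtype replicate 2, an alternative chosen after seeing the data, gave 0 calls and a median of -0.0047, with dop-1 at -0.0908, dop-3 at -0.53, dop-4 at -0.0410, ser-1 at -2.37 and ser-7 at -0.16. ser-1 was at -1.15 with pan-neuronal scaling alone and ranged from -0.42 to 4.48 over leaving out each library. The ratio of receptor reads as a share of all reads was 5.44 to 60.9 over leaving out each library, and that per 1000 pan-neuronal reads 1.15 to 1.84. The causes were not tested. Over all genes, limma called 961 higher and 816 lower, 662 and 568 with a pseudocount of 0.5, 1737 and 1480 with one of 8, and 533 and 546 with no filter. With 1 to 4 reads in wildtype replicate 2, the fold changes of the dopamine receptor genes depend on the added pseudocount, and a level there near 0 says only that few reads were seen at this depth. Where a fit left 1 wildtype library, it was assumed to vary like the thoc-5(wy822) libraries.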
